A study of Mus musculus with 12 samples.

Results

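The 42 genes described here belong to the integrated stress response and the unfolded protein response, and were taken by gene symbol from a list of ATF4-arm and endoplasmic reticulum (ER) stress genes. All 42 had a probe set among the 15780 named genes of the table, and all 42 passed the filter on low signal. RNA was measured on 12 Affymetrix arrays in 4 groups of 3. The groups were RNA precipitated with an anti-CNOT6L antibody (IP) from wild-type (WT) hepatocytes, the same IP from Cnot6l knockout (KO) hepatocytes, total input RNA of the KO hepatocytes and total input RNA of the WT hepatocytes. All cells were primary hepatocytes of male C57BL/6J mice aged 8 weeks, with no treatment named in the labels, and each preparation was split between its input and its IP. CNOT6L is one of the deadenylases of CCR4-NOT, a complex that shortens mRNA tails, and the KO precipitate was the study's negative control.

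In the integrated stress response, kinases such as PERK phosphorylate the translation factor eIF2, general translation falls, and the transcription factor ATF4 is made and turns on genes of amino acid supply, redox balance and growth restraint. In the unfolded protein response, PERK, IRE1 and ATF6 sense misfolded protein in the ER lumen, and ATF6 and spliced XBP1 turn on ER chaperones, disulfide isomerases and the machinery that sends misfolded protein to degradation. Hepatocytes secrete most plasma proteins and carry a large ER. The genes were read by role: 12 ATF4-arm transcription factors and regulators, 9 genes of amino acid and one-carbon metabolism, 4 genes of the stress sensors and XBP1, 10 ER chaperones and co-chaperones, 3 protein disulfide isomerases and 4 genes of ER-associated degradation.

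The promoters of both arms carry known response elements, and those of 5 genes whose signals recur below are shown to give these elements in their context. RefSeq promoter sequences (GRCm38.p6) were held for 36 of the 42 genes and were searched on both strands in the 250 bases before the annotated start. The letters searched were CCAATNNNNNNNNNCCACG for the ER stress response element (ERSE), ATTGGNCCACG for ERSE-II, TGACGTGG for the unfolded protein response element and TGATGNAA for the C/EBP-ATF response element (CARE). No match of one motif overlapped a match of another. Each sequence runs 5′ to 3′ on the gene's strand and ends at the base before the start, with the matched motif in capitals. Hspa5 (chr2:34771980-34772089, plus strand) encodes BiP, the main ER chaperone. Hsp90b1 (chr10:86705445-86705674, minus strand) encodes the ER form of HSP90 and holds ERSE at 2 places, on opposite strands. Creld2 (chr15:88819496-88819645, plus strand) encodes an ER-stress-inducible protein of the secretory pathway. Syvn1 (chr19:6046476-6046575, plus strand) encodes HRD1, the ubiquitin ligase of ER-associated degradation. Chac1 (chr2:119351022-119351241, plus strand) encodes a glutathione-degrading enzyme of the ATF4 arm and holds CARE on the opposite strand.
Hspa5: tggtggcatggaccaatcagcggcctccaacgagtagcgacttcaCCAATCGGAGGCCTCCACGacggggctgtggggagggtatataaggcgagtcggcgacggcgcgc
Hsp90b1: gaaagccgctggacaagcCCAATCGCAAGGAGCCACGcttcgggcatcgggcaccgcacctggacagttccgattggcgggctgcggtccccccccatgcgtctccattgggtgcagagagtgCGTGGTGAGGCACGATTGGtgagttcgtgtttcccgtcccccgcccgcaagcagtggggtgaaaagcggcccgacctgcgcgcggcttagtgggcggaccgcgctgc
Creld2: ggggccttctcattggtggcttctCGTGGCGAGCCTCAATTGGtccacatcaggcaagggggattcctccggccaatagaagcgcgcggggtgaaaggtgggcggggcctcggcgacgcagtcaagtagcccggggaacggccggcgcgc
Syvn1: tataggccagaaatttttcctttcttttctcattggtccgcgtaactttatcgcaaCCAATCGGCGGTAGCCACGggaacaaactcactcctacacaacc
Chac1: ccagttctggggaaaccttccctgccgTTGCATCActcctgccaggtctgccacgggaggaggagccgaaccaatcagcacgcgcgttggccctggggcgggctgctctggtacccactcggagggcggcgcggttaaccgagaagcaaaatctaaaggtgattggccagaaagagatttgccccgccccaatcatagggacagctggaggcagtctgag

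ERSE was found in 8 of the 36 promoters (22.2%), against 35 of 27025 genes with a promoter in the table (0.13%). The 8 were Hspa5, Hsp90b1, Dnajc3, Creld2, Calr, Canx, Pdia6 and Syvn1, all in the ER arm. Herpud1, an ER membrane protein of the degradation machinery, was the 1 gene with ERSE-II (2.78%, against 0.037% of all genes). CARE was found in 7 of the 36 (19.4%, against 3.91% of all genes), namely Atf3, Chac1, Slc7a11, Asns, Nupr1, Vldlr and Herpud1. The unfolded protein response element was found in 0 of the 36 and in 0.603% of all genes. A match describes these letters in this window only.

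Signals are log2 values as deposited, and levels are not compared between probe sets. The hepatocyte markers Alb, Apoa1 and Ttr were high in every input, and 5 of the 6 hepatocyte markers in the table were above the filter level of 5.57 in all inputs. Markers of other liver cells above that level in all inputs were 1 of 6 for Kupffer cells and other leukocytes (Cd68), 1 of 5 for endothelial cells, 3 of 5 for stellate cells and 2 of 4 for cholangiocytes. Fewer cells of a type and less RNA per cell cannot be told apart in these bulk samples. The Cnot6l probe set read 9.11, 10.65 and 8.85 in WT IP, 9.29, 10.63 and 9.46 in KO IP, 9.12, 9.23 and 9.34 in KO input, and 8.44, 9.51 and 9.11 in WT input. It was thus not lower on the arrays labelled KO, and the labels do not say which part of the gene was deleted. IP and input arrays differed in their control probe sets: spiked poly-A controls were higher in IP by a mean of 5.11, and Gapdh had a 3′ signal that stood further above its 5′ signal, by 1.21 more. For beta-actin this gap was larger in IP by a mean of 1.56. Hybridisation controls were higher in IP by a mean of 3.90, and the IP minus input difference in the SD of an array averaged -0.25. The poly-A controls also differed by replicate number, with 5.04, 8.51 and 8.81 in KO input and 5.05, 8.62 and 8.74 in WT input. The part of these differences in any value below was not tested.

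The comparison of both precipitates asks which transcripts were recovered more with the antibody when its target gene was intact. Ddit4, an inhibitor of mTORC1 signalling induced by ATF4 and other stress factors, had the largest difference of the 42 genes. Its signal was 12.21, 11.48 and 10.99 in the WT IPs, 10.14, 7.47 and 7.64 in the KO IPs, 10.50, 10.12 and 9.70 in the KO inputs, and 10.37, 10.43 and 10.21 in the WT inputs. Every WT IP lay above every other array, and each KO IP lay below its own input. WT IP exceeded KO IP by 3.15 (SE 0.60), an 8.85-fold difference, with differences of 2.08, 4.01 and 3.35 within replicates 1, 2 and 3. The adjusted p was 0.0728 in the limma fit without a block. With the replicate number as a block, which compares arrays of the same number with each other, the limma adjusted p was 0.0042. That fit takes its spread from all 12 arrays, inputs included, and not from the 3 IP differences alone. The SDs of Ddit4 were 0.62 in WT IP, 1.49 in KO IP, 0.40 in KO input and 0.12 in WT input.

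Ppp1r15a encodes GADD34, the phosphatase subunit that reverses eIF2 phosphorylation. It read 10.74, 10.75 and 11.05 in WT IP, 9.81, 8.50 and 9.58 in KO IP, 9.68, 9.16 and 10.17 in KO input, and 9.31, 9.52 and 10.03 in WT input. The WT IPs stood above the other 9 arrays with no overlap. WT IP exceeded KO IP by 1.55 (SE 0.39), or 2.92-fold (limma adjusted p = 0.211 without the block, 0.016 with it), and the difference was positive within all 3 numbers.

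Syvn1 read 10.12, 9.91 and 11.59 in WT IP, 8.98, 8.82 and 10.19 in KO IP, 8.95, 9.23 and 10.16 in KO input, and 9.08, 9.19 and 10.16 in WT input. Replicate 3 was the highest in every group, and the ranges overlapped although each WT IP exceeded the KO IP of its number. These within-number differences were 1.13, 1.10 and 1.41, with a mean of 1.21, or 2.32-fold (limma adjusted p = 0.896 without the block, 0.00995 with it). Without WT IP replicate 3 the mean difference was 0.69 in the fit without the block, where the KO IP of that number stayed in. It ran from 1.11 to 1.27 in the blocked fit with 1 number left out. Eif2ak3, which encodes PERK, had 5.84, 6.76 and 7.31 in WT IP, 5.04, 5.94 and 5.82 in KO IP, 5.42, 6.27 and 6.23 in KO input, and 5.57, 6.00 and 6.31 in WT input. Its WT IPs were above the KO IPs of their number by 0.80, 0.82 and 1.49, although the 2 groups overlapped. The mean difference was 1.04, or 2.05-fold (limma adjusted p = 0.785 without the block, 0.0268 with it), from signals near the filter level.

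**Figure D1:**
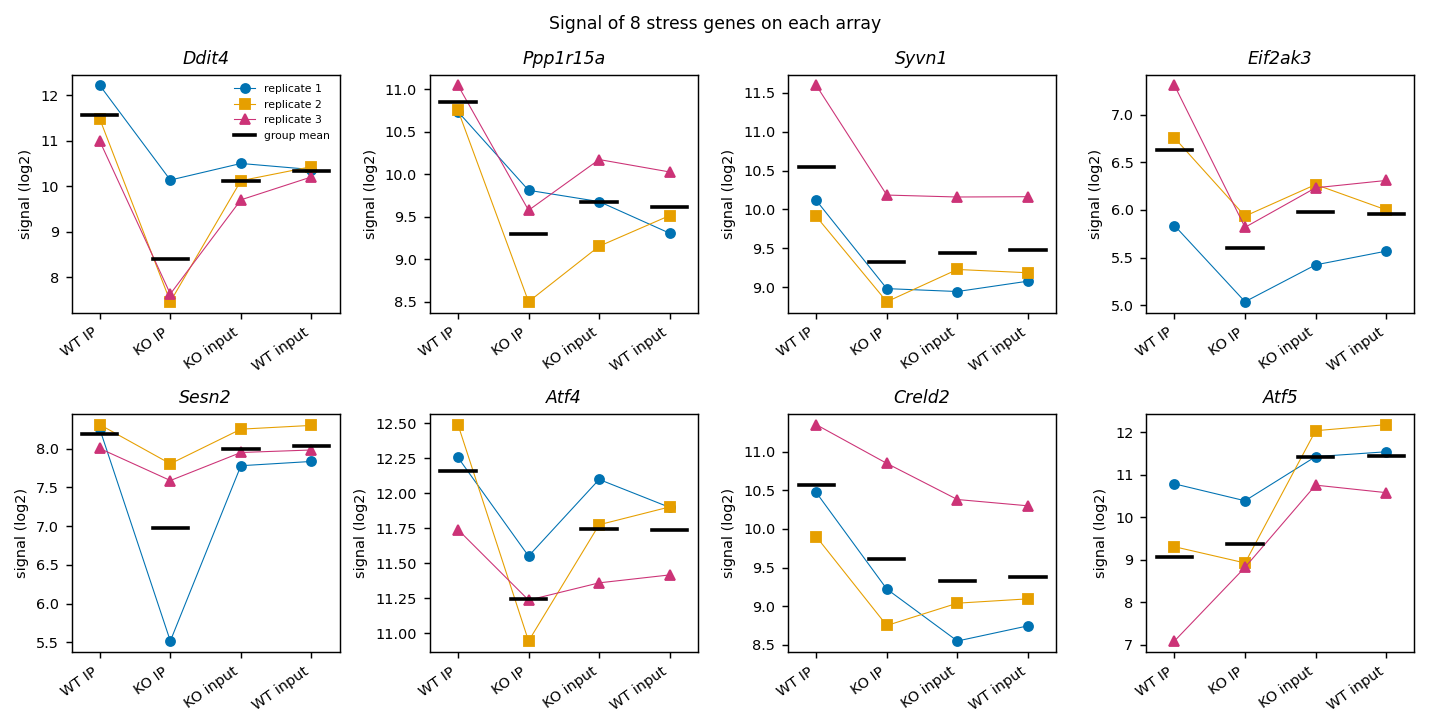
Signal (log2) of 8 stress genes on each of the 12 arrays, with groups on the x axis, points and thin lines for replicates 1 to 3, and black bars for group means. The 3 WT IPs of Ddit4 and Ppp1r15a lie above the other 9 arrays, while Atf5 is higher in all 6 inputs than in the IPs of the same number.

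Of the 42 genes, 0 passed between the precipitates without the block, where 0.253% of the 9496 genes tested were called higher in WT IP and 0% lower. At an unadjusted limma p under 0.05, 6 were higher (Atf4, Ppp1r15a, Ddit4, Sesn2, Eif2ak3 and Syvn1) and 0 lower, against 4.78% and 0.611% of all genes. With the block, the 4 genes above rose (9.52% of the 42, against 2.33% of all genes tested) and 0 fell (0.126% of all genes). Groups did not overlap, with WT IP higher, for Atf4, Ppp1r15a, Ddit4 and Sesn2, or 9.52% of the 42 against 5.44% of all genes, and WT IP was lower without overlap for 0 of the 42, against 1.35%. The median over the 42 was 0.07, beside 0.04 over all genes tested, and 25 of the 42 differences were positive (59.5%, against 54.1% of all genes). With quantile normalization the median of the 42 was 0.017. The differences thus lay in a few genes, while the middle of the list stood close to all genes. Without KO IP replicate 1, Ddit4 passed without a block, at 4.01 (limma adjusted p = 0.0017). With the block and without all arrays of replicate 1, Ddit4, Ppp1r15a and Vldlr passed, and without those of replicate 2 or of replicate 3, 0 did.

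Among the genes that passed in neither fit, the 3 largest positive differences were those of Sesn2, Creld2 and Atf4. Sesn2, a leucine-binding restraint on mTORC1, read 8.25, 8.31 and 8.00 in WT IP, 5.52, 7.81 and 7.59 in KO IP, 7.78, 8.25 and 7.95 in KO input, and 7.83, 8.30 and 7.98 in WT input. The 1 low array, KO IP replicate 1, set most of its mean difference of 1.22 (limma adjusted p = 0.173 with the block), which was 0.49 without that array. Atf4 itself read 12.26, 12.49 and 11.74 in WT IP, 11.55, 10.94 and 11.24 in KO IP, 12.10, 11.78 and 11.36 in KO input, and 11.90, 11.90 and 11.42 in WT input. The WT IPs of Atf4 lay above the KO IPs without overlap, with a mean difference of 0.92 (limma adjusted p = 0.583 without the block, 0.0586 with it). Creld2 had 10.47, 9.90 and 11.35 in WT IP, 9.22, 8.75 and 10.85 in KO IP, 8.55, 9.04 and 10.38 in KO input, and 8.75, 9.09 and 10.30 in WT input. It was higher in WT IP by 0.97 (limma adjusted p = 0.0876 with the block). Each WT IP lay above the KO IP of its number, while the ranges overlapped. In the fit without a block, the difference was 0.58 without WT IP replicate 3, 0.54 without KO IP replicate 2 and 1.59 without KO IP replicate 3. The blocked fit with 1 number left out gave 0.83 to 1.20.

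The other sensors and the usual output genes Hspa5, Xbp1 and Ddit3 passed in neither fit between the precipitates, and neither did the remaining genes. Hspa5 read 12.81, 12.47 and 12.78 in WT IP and 12.75, 12.51 and 12.86 in KO IP. The WT IP minus KO IP difference of Hspa5 was -0.02, with a 95% interval of -0.55 to 0.51 in the blocked limma fit. Ern1, which encodes IRE1, differed by 0.04, Atf6 by 0.11, Xbp1 by 0.17 and Ddit3, which encodes the transcription factor CHOP, by -0.13. The intervals with the block were -0.70 to 0.79 for Ern1, -0.32 to 0.54 for Atf6, -0.33 to 0.67 for Xbp1 and -0.73 to 0.47 for Ddit3, so that differences of this size or smaller could not be resolved. Of the 9 genes of amino acid and one-carbon metabolism, 0 passed, with differences of -0.44 to 0.23 and a median of -0.08. Asns, the asparagine synthetase, was at the low end of that range and Mthfd2, a mitochondrial folate enzyme, at the high end. Among the rest, Vldlr differed by 0.65, with opposite signs between the numbers (-0.49, 1.40 and 1.06). Dnajb9, an ER co-chaperone of BiP, differed by 0.44, positive in all 3 numbers (limma adjusted p = 0.331 with the block). The WT IP minus KO IP differences of the 3′ to 5′ gap of Gapdh were -0.30, 0.06 and 0.42 in replicates 1, 2 and 3. Those of the beta-actin gap were -0.09, 0.07 and 0.61, and those of the poly-A controls were -0.16, -0.20 and -0.25. Those of the hybridisation controls were -0.32, -1.01 and -0.24. Their part in the differences between the precipitates was not tested.

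**Figure D2:**
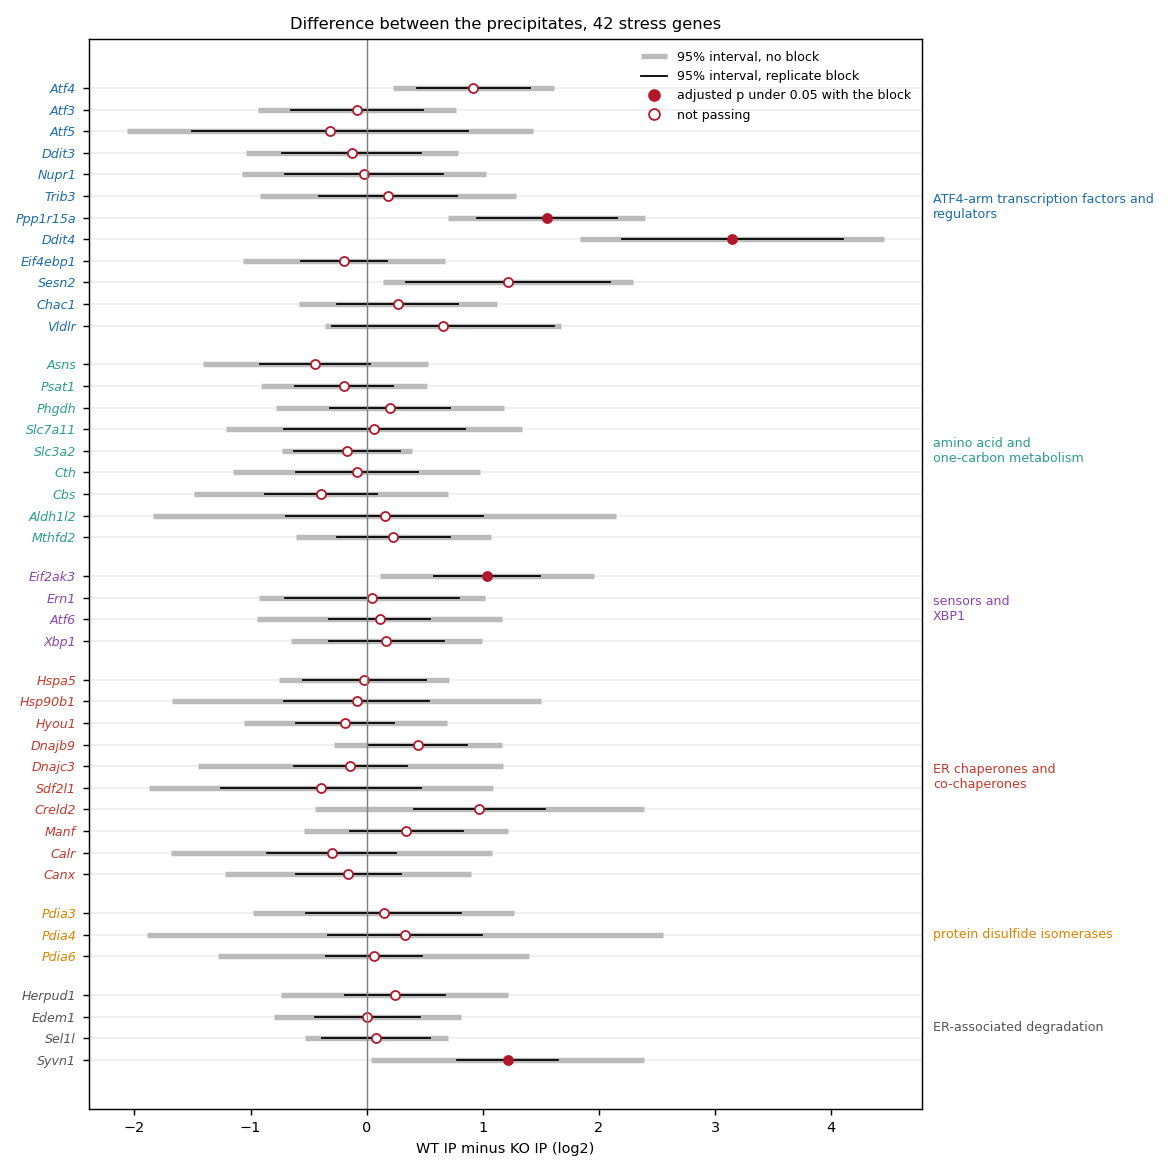
WT IP minus KO IP (log2) for each of the 42 genes, grouped by role, with grey bars for 95% intervals without a block and black lines for those with the replicate block. Filled points mark Ddit4, Ppp1r15a, Eif2ak3 and Syvn1, which passed with the block, and the other points are open.

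The study's negative control leads to the specific enrichment, the IP minus input difference of the WT cells minus that of the KO cells. For this comparison 0 of the 42 genes passed without the block, with the preparation as a block or with the number as a block, where 0.0105%, 0.0211% and 0.284% of all genes tested were called higher. At an unadjusted limma p under 0.05, 2 were higher without the block (Ppp1r15a and Ddit4) and 7 with it (those 2, Atf4, Sesn2, Eif2ak3, Creld2 and Syvn1), and 0 were lower in both. Of all genes tested, 1.83% were higher and 0.147% lower at that threshold without the block, and 5.54% and 0.621% with it. Ddit4 had the largest value, 2.92 (SE 0.85), or 7.57-fold, with 2.21, 3.70 and 2.85 within the numbers (limma adjusted p = 1.0 without the block, 0.169 with it). Without KO IP replicate 1, the Ddit4 value was 3.78 (limma adjusted p = 0.0401 without the block). Ppp1r15a followed with 1.60, or 3.03-fold (limma adjusted p = 0.171 with the block), then Syvn1 with 1.18 (0.299), Sesn2 with 1.17 (0.786), Eif2ak3 with 1.05 (0.369) and Atf4 with 0.92 (0.517). Sesn2 had 2.68 in replicate 1 against 0.46 and 0.38 in the others, and its mean was 0.45 without KO IP replicate 1. That of Syvn1 was 0.65 without WT IP replicate 3 in the fit without the block. In the blocked fit with 1 number left out, the Syvn1 value ran from 1.07 to 1.27.

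The specific enrichment was positive for 27 of the 42 genes (64.3%, against 55.8% of all genes tested), with a median of 0.19 beside 0.05 over all genes. With quantile normalization the median of the 42 was 0.088. It was positive in all 3 numbers for 14 genes (33.3% of the 42, against 21.4% of all genes) and negative in all 3 for Psat1, Hyou1 and Calr (7.14%, against 13.7%). By role, the median was 0.46 for the ATF4-arm transcription factors and regulators, 0.21 for the sensors and XBP1, 0.18 for the disulfide isomerases, 0.17 for ER-associated degradation, 0.09 for amino acid and one-carbon metabolism and 0.06 for the ER chaperones. In Atf4, Ddit4, Sesn2 and Eif2ak3, all 3 WT preparations had more signal in IP than in input and all 3 KO preparations had less. That pattern was met by 9.52% of the 42 genes and by 1.66% of all genes tested. It counts signs only, and the WT differences of Sesn2 were 0.42, 0.0096 and 0.019 in replicates 1, 2 and 3. Hyou1, an ER chaperone of the HSP70 class, was the 1 gene with the opposite pattern (0.179% of all genes), from signals of 5.67 to 6.94.

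The WT IP against its own input shows recovery without the negative control. Without the block, 0 of the 42 genes passed (0.105% of all genes tested were higher and 0% lower), and at an unadjusted limma p under 0.05, Ppp1r15a and Vldlr were higher (4.58% of all genes) and Atf5 lower (6.03%). With the preparation as a block, 4 genes rose (9.52%, against 2.41% of all genes) and 1 fell (2.38%, against 4.61%). Ppp1r15a rose by 1.23, or 2.34-fold (limma adjusted p = 0.273 without the block, 0.024 with it). Creld2 rose by 1.19 (limma adjusted p = 0.554 without the block, 0.0373 with it), and Syvn1 by 1.06 (0.528 and 0.030 in the same fits). Vldlr, a lipoprotein receptor induced by ATF4, read 8.61, 9.78 and 9.36 in WT IP, 9.11, 8.38 and 8.30 in KO IP, 8.44, 8.03 and 7.76 in KO input, and 7.13, 8.93 and 8.30 in WT input. It rose by 1.13 in WT IP (limma adjusted p = 0.411 without the block, 0.024 with it), with overlap of the ranges, and did not pass when the number alone was the block (0.109). Without WT input replicate 1 the Vldlr rise was 0.63, and without WT IP replicate 3 that of Syvn1 was 0.54, both in the fit without the block. The blocked fit with 1 number left out gave 0.95 to 1.27 for Vldlr and 0.88 to 1.23 for Syvn1. In KO IP, Vldlr was also above its input, by 0.52 and in all 3 numbers, without passing (limma adjusted p = 0.150 with the block). Its specific enrichment of 0.61 did not pass either (limma adjusted p = 0.911 with the block). Atf5, a transcription factor of the ATF4 arm, fell by 2.37 in WT IP (limma adjusted p = 0.310 without the block, 0.0372 with it), a call lost when quantile normalization was added to the block (0.066).

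Atf5 read 10.78, 9.30 and 7.08 in WT IP, 10.38, 8.92 and 8.82 in KO IP, 11.42, 12.03 and 10.75 in KO input, and 11.54, 12.17 and 10.57 in WT input. Each IP lay below the input of its preparation in both genotypes, with differences of -0.75, -2.87 and -3.49 in WT. The WT value was -1.39 without WT IP replicate 3 in the fit without the block. It ran from -3.18 to -1.81 in the blocked fit with 1 number left out. Ddit4 was higher in WT IP than in WT input by 1.23 without passing (limma adjusted p = 0.0988 with the block), although every WT IP exceeded every WT input. Chac1 behaved alike in its ranges: it read 10.42, 10.23 and 9.53 in WT IP and 9.34, 9.45 and 8.86 in WT input, a difference of 0.84 that passed with the number as the block (limma adjusted p = 0.0441) and not with the preparation (0.067). The number block also called Ppp1r15a, Creld2 and Syvn1 higher and Atf5 lower, where 3.81% of all genes were called higher and 7.86% lower. When 1 number was left out of the blocked fit, the 4 rises no longer passed, and the fall of Atf5 passed without replicate 1 (-3.18, limma adjusted p = 0.0337).

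In the KO precipitate, which measures the background of the method transcript by transcript, 0 of the 42 passed without the block (0% of all genes in either direction), and Atf5, Ddit4 and Phgdh were lower at an unadjusted limma p under 0.05 (8% of all genes, with 2.97% higher). With the preparation as a block, Ddit4 and Pdia3 fell (4.76%, against 5.28% of all genes) and 0 rose (0.727% of all genes). Ddit4 fell by 1.69 (limma adjusted p = 0.346 without the block, 0.0482 with it), with differences of -0.36, -2.65 and -2.06 within the numbers. Pdia3, a disulfide isomerase that folds glycoproteins with calnexin and calreticulin, read 8.43, 9.90 and 10.26 in KO IP against 10.15, 10.35 and 11.42 in KO input. It fell by 1.11 (limma adjusted p = 0.462 without the block, 0.0444 with it), each KO IP lying below its input while the ranges overlapped, and the difference was -0.56 without KO IP replicate 1 and -0.72 without KO input replicate 3. Ddit4 was at -2.55 without KO IP replicate 1. In the blocked fit with 1 number left out, Pdia3 ran from -1.44 to -0.80 and Ddit4 from -2.36 to -1.21. In WT the Pdia3 difference was -0.93 and did not pass (limma adjusted p = 0.063 with the block), with every WT IP below every WT input. Among the 2 calls, Ddit4 alone still passed without replicate 1 (-2.36, limma adjusted p = 0.0417), and 0 passed without replicate 2 or replicate 3.

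A further 4 genes had large differences in the KO precipitate that did not pass. Atf5 was lower by a log2 difference of -2.03 (limma adjusted p = 0.0552 with the block), Sesn2 by -1.02 (0.109), Pdia4 by -1.02 (0.0511) and Phgdh by -0.99 (0.054). Sesn2 was at -0.30 without KO IP replicate 1, Pdia4 at -0.17 without that array and at -0.16 without KO input replicate 3, and Phgdh at -0.58 without KO IP replicate 2. Pdia4 was at -1.88 without KO input replicate 1 and at -1.76 without KO IP replicate 3. These values are from the fit without a block, and within the numbers Pdia4 had -0.98, -0.83 and -1.25. The blocked fit with 1 number left out gave -1.12 to -0.91 for Pdia4, -1.23 to -0.85 for Phgdh and -1.35 to -0.40 for Sesn2. Phgdh, the first enzyme of serine synthesis, read 10.33, 9.11 and 10.34 in KO IP against 11.52, 10.37 and 10.85 in KO input. Its KO IPs all lay below the KO inputs. With the number as the block, Atf5 and Phgdh also passed, where 9.45% of all genes were called lower and 1.85% higher, and with quantile normalization added to the preparation block 0 genes did. All 9 genes of amino acid and one-carbon metabolism had negative values in KO IP, and 8 of them in WT IP (88.9%), where 65.9% of all genes were negative in KO and 58.4% in WT, with medians of -0.23 in KO and -0.42 in WT. The median of all 42 was -0.10 in WT, beside -0.11 over all genes tested, and -0.27 in KO, beside -0.21, so the middle of the list lay close to that of all genes in both genotypes.

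**Figure D3:**
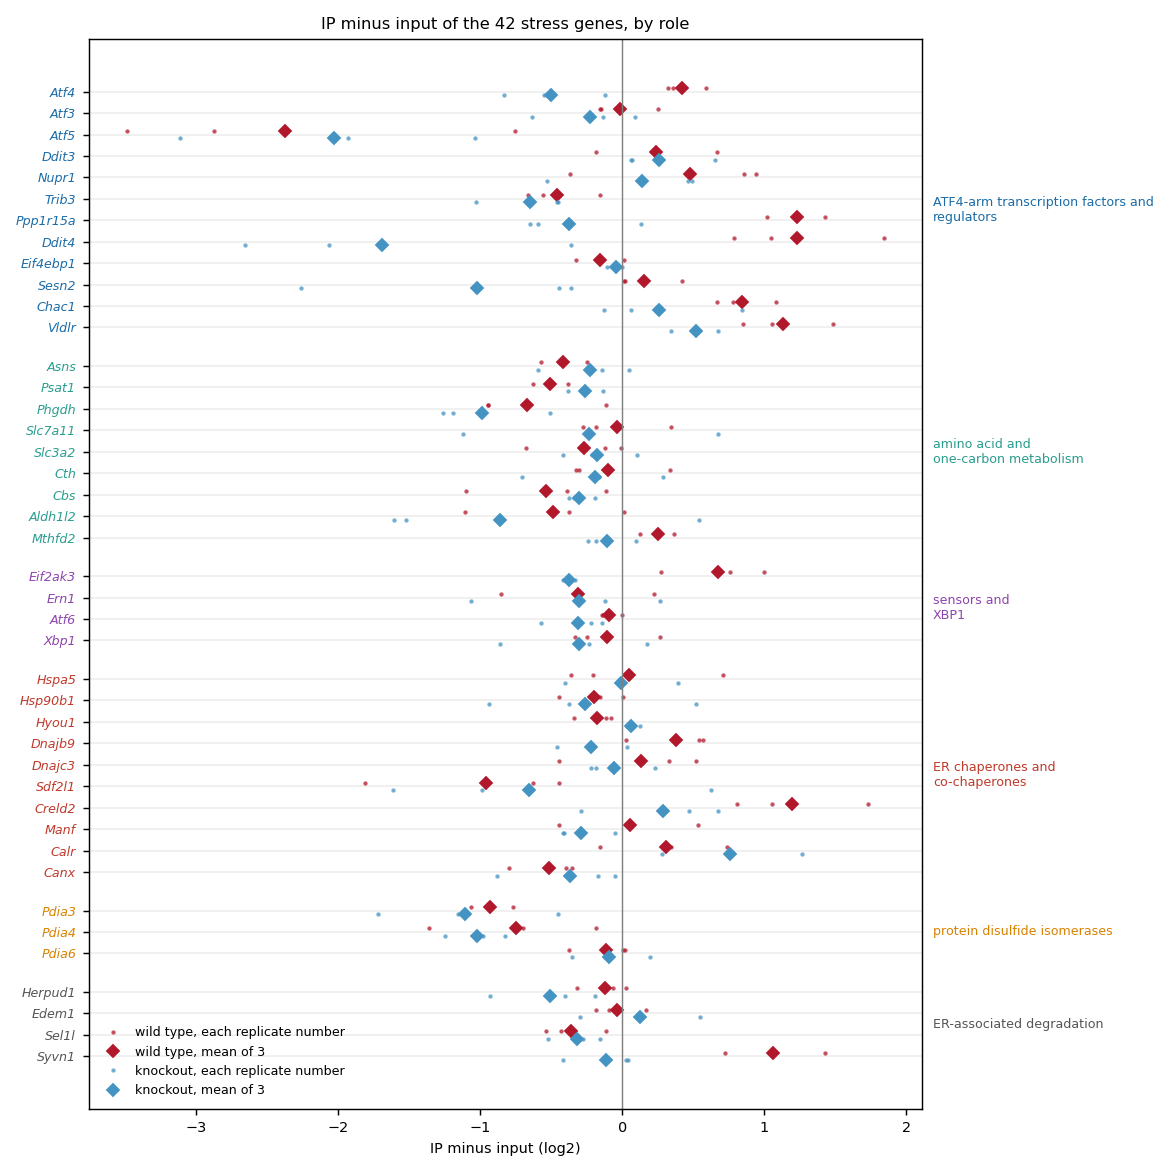
IP minus input (log2) of the 42 genes by role, in WT (red) and KO (blue), with small dots for each replicate number and diamonds for their mean. Ddit4 has means of 1.23 in WT and -1.69 in KO, while Atf5 is negative in both genotypes.

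The inputs show whether the hepatocytes differed in the stress transcripts when Cnot6l was lost. None of the 42 genes passed without the block or with it (limma, 0% of all genes tested in both), and 0 of the 42 had an unadjusted p under 0.05 (0.0316% of all genes were higher and 0.0211% lower). The KO input minus WT input differences ran from -0.23 for Ddit4 to 0.36 for Nupr1, a stress-induced transcriptional cofactor, with a median of 0.04 beside 0.02 over all genes. Dnajc3, a co-chaperone of BiP, had 0.33, Chac1 0.32, Atf3, a transcription factor of the ATF4 arm, 0.29 and Asns 0.25. Atf4 differed by 0.01 (95% interval -0.68 to 0.69 without the block, -0.48 to 0.49 with it). The median width of the interval over the 42 genes was 2.00 without the block and 1.04 with it, so changes smaller than about the intervals' reach to either side were not resolved. Nupr1, the largest of these, read 7.32, 7.21 and 7.59 in KO input and 6.01, 7.70 and 7.32 in WT input. Its difference was -0.14 without WT input replicate 1 in the fit without a block. Those of Dnajc3, Atf3 and Asns also turned negative in that fit when 1 input array was left out. In the blocked fit with 1 number left out, these 3 stayed positive, at 0.27 to 0.42, 0.077 to 0.50 and 0.11 to 0.41. Nupr1 ran from -0.11 to 0.79 there.

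In the median, the 42 genes varied more with the replicate number than with the group, a pattern noticed in the values and given as a description. The number took a median of 62.2% of each gene's variance over the 12 arrays, beside 47.5% over all genes tested, and the group took 14.9%, beside 24.1%. Pdia6, a disulfide isomerase, had the highest share of the number (96.4%) and read 10.74, 10.46 and 12.11 in WT IP, 10.60, 10.50 and 12.02 in KO IP, 10.40, 10.86 and 12.15 in KO input, and 10.72, 10.83 and 12.10 in WT input. Replicate 3 stood apart in each of its groups. Eif4ebp1, which encodes a repressor of cap-dependent translation, followed the number in the other direction (92.2%), with 12.67, 12.32 and 11.63 in WT IP, 12.85, 12.44 and 11.92 in KO IP, 12.86, 12.55 and 11.95 in KO input, and 12.67, 12.65 and 11.78 in WT input. The group took more of the variance than the number in some genes, such as Ddit4 (73.0%) and Ppp1r15a (69.4%).

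The ER arm stood apart by number. Replicate 3 was the highest of the 3 in both input groups for 22 of the 42 genes (52.4%, against 27.5% of all genes tested). They comprised 20 of the 21 ER-arm genes (95.2%), all but Eif2ak3, and 2 of the 21 ATF4-arm genes (9.52%), Ppp1r15a and the cystine transporter gene Slc7a11. Replicate 3 was the lowest in both inputs for 10 genes (23.8%, against 40.7%), all in the ATF4 arm: Atf4, Atf3, Atf5, Ddit4, Eif4ebp1, Chac1, Asns, Psat1, Cth and Cbs. They were 47.6% of the ATF4 arm, close to the share of all genes. In all 4 groups at once, replicate 3 was the highest for 17 genes (40.5%, against 15%) and the lowest for 6 (14.3%, against 20.3%).

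The median difference of replicate 3 from the mean of replicates 1 and 2, averaged over both inputs, was 1.42 for the disulfide isomerases, 1.14 for the ER chaperones, 0.74 for ER-associated degradation and 0.61 for the sensors and XBP1. It was -0.42 for the ATF4-arm transcription factors and regulators, -0.27 for amino acid and one-carbon metabolism and -0.14 over all genes tested. Pdia4, another disulfide isomerase, had the largest value, 2.54, with 7.63, 9.38 and 11.08 in KO input and 8.07, 9.11 and 11.09 in WT input. Sdf2l1, a component of ER chaperone complexes, had 2.08 in the inputs, with 6.68, 7.91 and 9.33 in KO and 7.15, 7.21 and 9.29 in WT. In the IPs of Sdf2l1 the same difference was 0.84 in WT and 0.61 in KO. Hsp90b1 had 1.65, with 10.36, 10.85 and 12.09 in KO input and 10.11, 10.58 and 12.16 in WT input. Atf5 and Asns had the lowest values, -1.13 and -0.97. Atf6 and Xbp1, both upstream of the chaperones, had 0.86 and 0.59, while Ddit3 had 0.17.

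**Figure D4:**
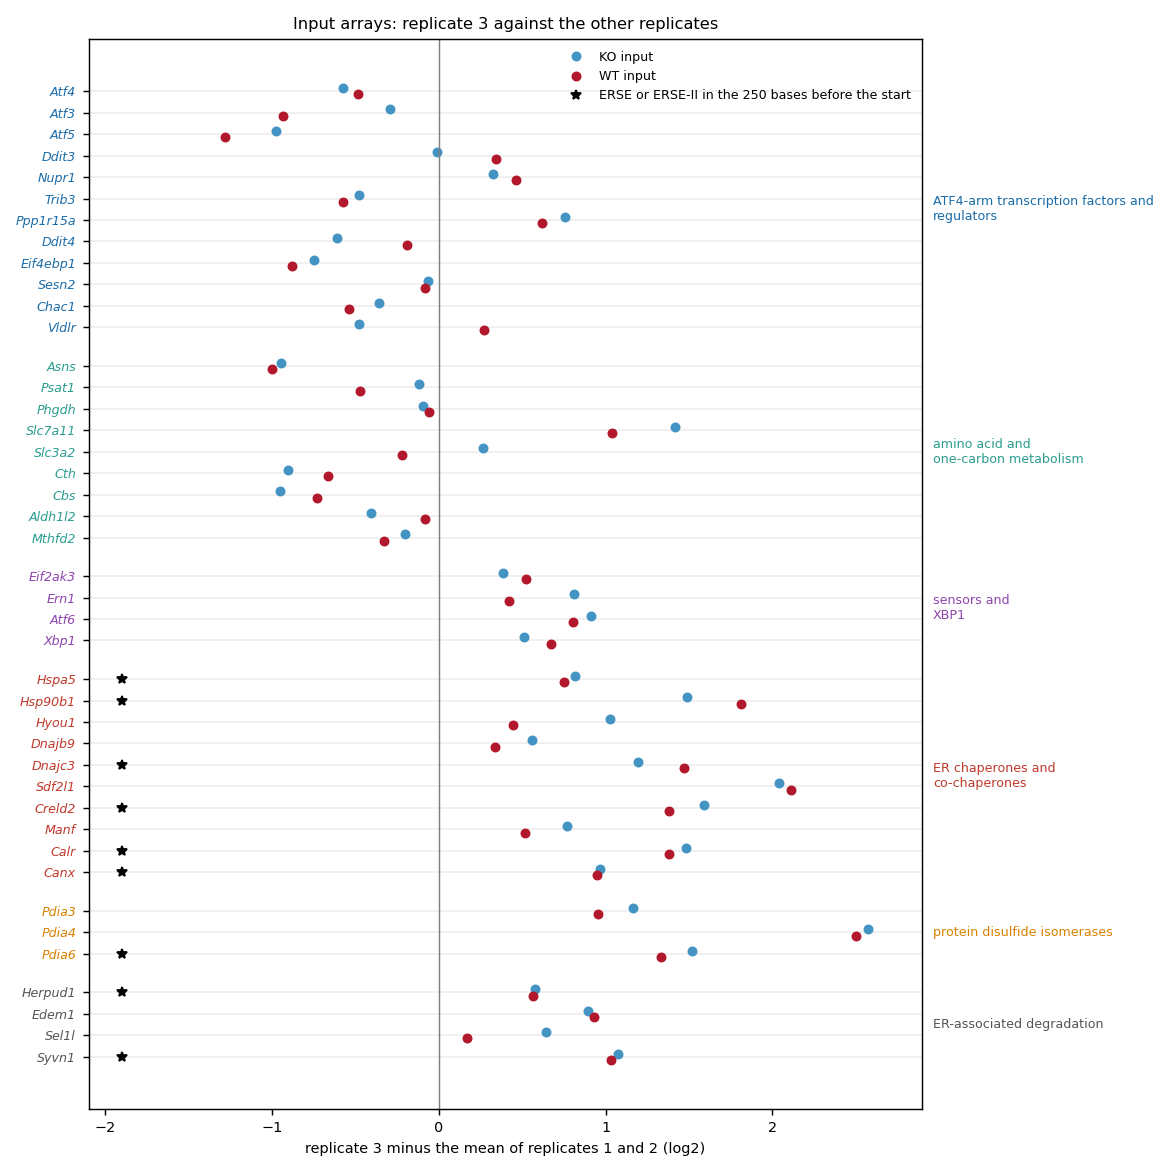
Replicate 3 minus the mean of replicates 1 and 2 (log2) in the KO inputs (blue) and WT inputs (red) for each of the 42 genes by role, with stars for genes whose promoter holds ERSE or ERSE-II. All 21 ER-arm genes lie to the right of 0 in both inputs, and most of the ATF4-arm genes lie to the left.

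The 8 genes with ERSE in the promoter all had replicate 3 highest in both inputs, with differences of 0.79 (Hspa5) to 1.65 (Hsp90b1) and a median of 1.38. Of the other 10 ER-arm genes with a promoter in the table, 9 had replicate 3 highest, with differences of 0.40 to 2.54 and a median of 0.61. The ranges overlapped, since Pdia4 and Sdf2l1 had no match to ERSE in this window and the largest differences. Hspa5 read 12.36, 12.53 and 13.26 in KO input and 12.10, 12.68 and 13.14 in WT input, and its IPs, at 12.47 to 12.86, differed less by number.

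Other measures moved with replicate 3 in the inputs. The mean of the hepatocyte markers was 10.58 in KO input replicate 3 and 10.55 in WT input replicate 3, against 11.41 to 11.76 in the other 4 inputs. The lower means came from Tat, Asgr1 and Hnf4a, with 5.61, 8.21 and 7.53 in KO input replicate 3 and 5.02, 8.11 and 7.87 in WT input replicate 3, each the lowest of its group, while Alb, Apoa1 and Ttr stayed at 14.72 to 15.12, 13.83 to 14.14 and 13.48 to 13.78 over all 6 inputs. The mean of the stellate cell markers was 6.18 and 6.23 in the same arrays, against 5.37 to 6.09. Within that list Dcn had 9.65 and 9.55, against 6.27 to 8.22, and Lrat 4.26 and 4.87, against 3.62 to 3.73. Reln was instead the lowest of its group in both arrays, at 6.28 and 6.21. For the cholangiocyte markers the mean was 6.24 and 6.29, against 5.30 to 6.02. That of the endothelial markers was 5.64 and 6.01, against 4.92 to 5.77, so its KO value lay within the range of the other inputs. The mean of the Kupffer cell and leukocyte markers, 5.80 and 5.86, lay within the 5.65 to 5.92 of the other inputs. The Gapdh 3′ to 5′ gap was 0.27 and 0.40, against -0.01 to 0.07, and that of beta-actin was 0.87 and 1.05, against 0.28 to 0.61. Their part in the higher replicate 3 values of the ER arm was not tested, and what a replicate number stands for, such as a day of preparation, is not stated in the labels.

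Among the other ATF4-arm genes, 33 of the 36 listed were tested and 0 passed without the block. With the block, 2 fell in WT IP against its input (6.06%, against 4.61% of all genes) and 3 in KO IP (9.09%, against 5.28%). Eif2b2 and Eif2b3, subunits of the exchange factor that eIF2 phosphorylation inhibits, fell by 1.12 and 1.01 in WT IP (limma adjusted p = 0.0258 and 0.0259 with the block) and by 1.19 and 0.81 in KO IP (0.0269 and 0.048), so both fell in both genotypes. Gadd45a, a stress-induced growth arrest gene, fell by 1.47 in KO IP (limma adjusted p = 0.0399 with the block), while its specific enrichment did not pass. Of the other ER stress genes, 43 of 46 were tested and 0 passed without the block. With it, Os9, an ER lectin of the degradation pathway, fell by 1.15 in WT IP against its input (limma adjusted p = 0.0305), and Creb3l2, an ER-bound transcription factor, rose by 1.08 in WT IP over KO IP (0.0212). Each was 1 of 43 genes (2.33%), where 4.61% and 2.33% of all genes were called in the same direction. The median WT IP minus KO IP difference was -0.07 in the other ATF4-arm genes and 0.02 in the other ER stress genes, beside 0.04 over all genes tested.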

How the data were processed

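The log2 values, 1 per probe set and array, are the authors' deposited values, and the log2 scale was read from their range. Per the labels' protocols, the hybridised material was biotinylated cRNA. How the background was corrected and arrays normalized was not given in the sources used here. Of 16539 probe sets, 15780 carried 1 gene symbol. The 9496 named genes whose mean reached the 40th percentile (5.57) were tested.

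Differences were fitted with limma 3.58.1 in R 4.3.3 on the means of the 4 groups over all 12 arrays (8 residual degrees of freedom), with two-sided p-values adjusted by Benjamini-Hochberg over all genes tested and a threshold of 0.05. Without a block, SEs and p-values rest on the spread between the 3 samples of a group, pooled over the 4 groups. The titles call these samples biological replicates. With a block, p-values rest on the spread left over all 12 arrays after the preparation or the number was removed. The number block counts an IP and its input from the same preparation as separate samples. The replicate numbers pair the arrays: after group means were removed, the 18 same-number pairs correlated at 0.453 to 0.936 across genes and other pairs at -0.711 to 0.0685. Removing the means pushes the other pairs down where same-number pairs are positive, so both ranges are not independent. The 18 pairs also include each IP with its own input. An IP and its input share a preparation by the study's design. A fit with that block is therefore given beside the first: the preparation for IP against input and specific enrichment (4 residual degrees of freedom), the number between genotypes (6).

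The 42 genes and the lists of other pathway genes were chosen with earlier results of these data known. Named were the genes called in either fit, the 6 largest differences per comparison, and Atf4, Ddit3, Hspa5, Xbp1, Ern1, Atf6 and Eif2ak3. Others, such as Chac1, Hyou1 and those in the account of replicate numbers and promoters, were chosen after their values were seen. Some genes on the lists of other pathway genes were not analysed here, nor were the hepatocyte markers Cps1 and Ass1. Promoters of Cth, Aldh1l2, Eif4ebp1, Atf6, Manf and Hyou1 were not used here. The alternatives were quantile normalization, no filter, a filter at the 60th percentile, an intensity trend, only the arrays compared, each array left out, and, chosen after seeing the data, the block with each number left out. Single arrays were left out of the fit without a block only, so the replicate numbers were then unequal between the groups. Arrays give no read depth; their number limits precision. Figures were drawn with matplotlib 3.10.9.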

Additional observations from a re-analysis of the deposited data

How the results depend on the processing

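The replicate block, by preparation or by number, raised the calls among the 42 genes from the 0 of the fit without a block. Higher in WT IP over WT input there were 4 with the preparation block, with the number block and with quantile normalization added, and lower there were 1, 1 and 0. Lower in KO IP over KO input there were 2, 4 and 0. Higher in WT IP over KO IP there were 4 in each, since both blocks are the same fit between genotypes, and the block changed no call for specific enrichment or between the inputs. With 1 array or 1 number left out, these counts were 0 to 0, 0 to 1, 0 to 1 and 0 to 3, and 0 to 1 for higher specific enrichment. The count moved by a single array is that of Ddit4 without KO IP replicate 1. Quantile normalization, with or without the block, moved the median IP minus input difference over the 42 genes to 0.058 in WT, against -0.10, and to -0.050 in KO, against -0.27. With 1 array left out, the medians ran from 0.029 to 0.40 for specific enrichment, -0.19 to 0.13 for WT IP over WT input, -0.46 to -0.098 for KO IP over KO input, -0.035 to 0.26 for WT IP over KO IP and -0.098 to 0.18 for KO input over WT input. With the block and 1 number left out, they ran from 0.023 to 0.26 for specific enrichment and -0.074 to -0.039 for WT IP over WT input. The only named values that changed sign were 4 differences between the inputs, all with arrays left out: Atf3 ran from -0.020 to 0.49, Nupr1 from -0.14 to 0.71 (-0.11 in the blocked fit without replicate 1), Asns from -0.081 to 0.57 (-0.044 without KO input replicate 1) and Dnajc3 from -0.17 to 0.82 (-0.067 without KO input replicate 3). Of the other values of named genes by setting, 638 kept their direction and their side of the threshold and 37 moved past it. Fits with no filter, the 60th percentile filter, an intensity trend or only the arrays compared called 0 of the 42 genes. The cause of these changes was not tested. With 3 arrays a group, the intervals are wide, and signal near the filter level limits Eif2ak3 and Hyou1.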

Other observations

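The higher replicate 3 values of the ER arm in the inputs also appeared in ER stress genes outside the 42. Of 43 other ER stress genes tested, such as those of signal peptide processing, translocation and ER export, 34 had replicate 3 highest in both inputs (79.1%, against 27.5% of all genes tested) and 4 had it lowest (9.30%, against 40.7%). Their median difference from replicates 1 and 2 was 0.93. Of 33 other ATF4-arm genes, such as those of aminoacyl-tRNA synthetases and amino acid transporters, 9 had replicate 3 highest (27.3%) and 12 lowest (36.4%), close to the shares of all genes. Their median was -0.06, beside -0.14 over all 9496 genes tested. These are values of 2 arrays labelled replicate 3 against 4 others, with no test.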
